A study of Caenorhabditis elegans with 6 samples.

Results

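The genes described here are the major sperm protein and spermatogenesis genes of Caenorhabditis elegans: every gene of the expression table whose symbol begins with msp-, ssp-, nspd- or spe-, together with gsp-3 and gsp-4. The rule found 79 genes among the 18206 of the table, of which 29 are msp, 12 ssp, 9 nspd, 27 spe and 2 gsp genes. The rule uses names alone and no measured value, but it was set with earlier results of these data known. A further 5 genes that carry such a name in the annotation were not analysed here.

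Germlines were dissected from synchronized young adults, 60 h after egg-lay and grown at 20 °C, and were picked up by hand with a glass capillary. The 3 wild-type libraries came from the Bristol strain N2. The other 3 came from strain BB20, which carries the deletion allele adr-2(ok735) and is called adr-2(-). The adr-2 gene encodes the adenosine deaminase that converts adenosine to inosine in the RNA of this worm, and the study asked what its loss does to germline transcripts.

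The hermaphrodite germline of C. elegans first makes sperm, late in larval life, and then switches to oocytes for the rest of adulthood. Spermatocytes transcribe their genes before and during meiosis, and mature sperm are transcriptionally silent and are stored in the spermatheca. Major sperm protein (MSP) assembles into the filaments that drive the crawling of nematode sperm, and it is also released as the signal that triggers oocyte maturation. The ssp genes encode small sperm-specific proteins with an MSP domain, and the nspd genes encode short nematode-specific peptides. GSP-3 and GSP-4 are protein phosphatase 1 catalytic subunits of sperm, needed for sperm meiosis and motility. The spe genes were named from mutants with defective spermatogenesis, and their products range from a transcription factor to membrane proteins of fertilization.

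Reads assigned to genes numbered 33658937 to 96397215 per library, and wild-type replicate 2 was the deepest. The adr-2 gene read 3020, 2822 and 2852 normalized counts in the wild-type replicates and 29.2, 61.0 and 35.6 in the adr-2(-) replicates, a log2 fold change of -6.15 that matched the strain labels. A normalized count is a read count divided by 1 factor per library that evens out depth. Germ cell genes were abundant, with a sum over 13 genes that differed by at most 1.08-fold between libraries. One library stood apart: in adr-2(-) replicate 1, the summed level of 8 muscle genes was 11794 normalized counts against 1227 to 1841 elsewhere, and that of 9 intestine genes was 10265 against 1471 to 2551. Sums of 8 hypodermis and molting genes (276 against 85.0 to 172) and of 7 neuron genes (465 against 329 to 377) were also highest there. The transcription factor genes elt-2 of the intestine and hlh-1 of muscle were low throughout, elt-2 with its highest value, 7.62 normalized counts from 6 reads, in that same library, and hlh-1 with its highest, 8.42, in wild-type replicate 1. The sum of 18 oocyte genes was lowest in that library, at 557748 normalized counts against 677966 to 805204.

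The main feature of these genes was a wide spread among libraries of the same strain. The 29 msp genes summed to 884, 1853 and 190 normalized counts in wild-type replicates 1, 2 and 3, from 840, 3837 and 196 reads. In adr-2(-), replicates 1, 2 and 3 gave sums of 2227, 591 and 208, on the basis of 1754, 436 and 181 reads. The highest library was therefore 11.7 times the lowest, and the spread was as wide within each strain, 9.77-fold in the wild type and 10.7-fold in adr-2(-). Exact Poisson 95% intervals, which cover counting error only, ran from 164 to 218 normalized counts in wild-type replicate 3 and from 1795 to 1913 in wild-type replicate 2. In bulk samples, fewer cells of a type and less RNA per cell cannot be told apart.

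The other sperm classes ordered the libraries in the same way. The 9 nspd genes summed to 264, 465 and 43.5 normalized counts in the wild type and to 770, 157 and 94.2 in adr-2(-). The 12 ssp genes summed to 74.7, 205 and 13.5 in the wild type and to 273, 66.5 and 34.5 in adr-2(-). The phosphatase pair gsp-3 and gsp-4 summed to 72.6, 165 and 13.5 in the wild type and to 216, 33.9 and 29.9 in adr-2(-). In all 4 classes the order from high to low was adr-2(-) replicate 1, wild-type replicate 2, wild-type replicate 1, adr-2(-) replicate 2, adr-2(-) replicate 3 and wild-type replicate 3. The highest library exceeded the lowest 20.2-fold for ssp, 17.7-fold for nspd and 15.9-fold for gsp. Between libraries the makeup of this RNA moved much less than its amount: msp genes contributed 56.7% to 72.9% of the summed counts of the 4 classes.

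The summed spe level behaved differently. It was 10607, 10140 and 10159 normalized counts in the wild type and 10235, 10679 and 10618 in adr-2(-), so that the libraries differed by at most 1.05-fold. Most of this sum came from spe-39, spe-48 and spe-44. The sum of the other 24 spe genes differed by at most 1.22-fold between libraries, and most of it came from spe-5, spe-15, spe-41 and spe-6. These sums say little of the lower spe genes. Of 12 tested spe genes, 5 differed at least 2-fold after adding 1, up to 30.2-fold for spe-26.

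**Figure D1:**
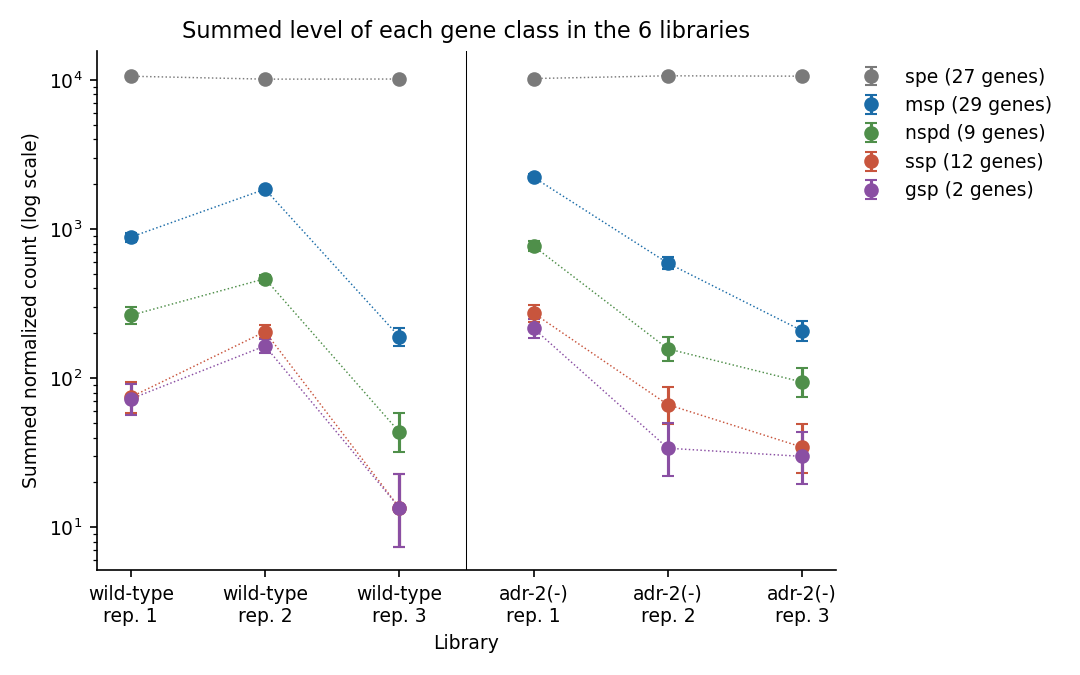
Summed normalized count (log axis) of each gene class in the 3 wild-type and 3 adr-2(-) libraries; points are sums over the class and bars are exact Poisson 95% intervals of the reads. The msp points lie between 190 and 2227, with nspd, ssp and gsp below them in the same library order, while the spe points stay between 10140 and 10679.

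Among single genes, msp-36 had the highest mean of its class. It measured 89.4, 192 and 10.6 normalized counts in the wild type and 249, 58.3 and 29.9 in adr-2(-). The msp-76 gene measured 76.8, 170 and 25.2 in the wild type and 175, 84.1 and 22.98 in adr-2(-). For msp-81, the values were 67.3, 135 and 10.6 in the wild type and 196, 48.8 and 16.1 in adr-2(-). In all 3 genes, wild-type replicate 2 and adr-2(-) replicate 1 were the highest libraries, replicate 3 of each strain was below its other replicates, and the strains overlapped.

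The nspd gene with the highest mean, nspd-1, read 68.4, 127 and 11.6 normalized counts in the wild type and 168, 37.98 and 22.98 in adr-2(-). Values of nspd-2 were 32.6, 103 and 16.5 in the wild type against 170, 23.1 and 20.7 in adr-2(-). The third, nspd-7, measured 31.6, 55.5 and 2.90 in the wild type and 127, 16.3 and 14.9 in adr-2(-). Again adr-2(-) replicate 1 was highest and wild-type replicate 3 lowest, and the groups overlapped.

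The ssp genes were measured with fewer reads. The ssp-34 gene read 25.3, 37.2 and 1.94 normalized counts in the wild type and 57.1, 8.14 and 4.597 in adr-2(-). For ssp-10 the wild-type values were 15.8, 55.1 and 0, and those of adr-2(-) were 44.4, 10.9 and 5.75. The ssp-35 gene read 13.7, 25.1 and 0 in the wild type and 43.2, 10.9 and 13.8 in adr-2(-). A count of 0 in wild-type replicate 3 allows up to 2.90 normalized counts there, the value of 3 reads.

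Both sperm phosphatases were highest in adr-2(-) replicate 1 and wild-type replicate 2, but in gsp-3 adr-2(-) replicate 3 was above replicate 2. Measured levels of gsp-4 were 40.0, 97.6 and 11.6 normalized counts in the wild type and 119.4, 23.1 and 8.04 in adr-2(-). The gsp-3 levels were 32.6, 67.1 and 1.94 in the wild type and 96.5, 10.9 and 21.8 in adr-2(-). The lowest library was adr-2(-) replicate 3 for gsp-4, with 7 reads, and wild-type replicate 3 for gsp-3, with 2 reads.

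Genes were tested where they averaged 10 or more normalized counts, and 48 of the 79 genes passed: 20 msp, 5 ssp, 9 nspd, 12 spe and both gsp genes. The other 31 were too low, among them 9 msp, 7 ssp and 15 spe genes. Of all 79 genes, 33 were at 0 in at least 1 library. Wild-type replicate 2 and adr-2(-) replicate 1 had reads on 77 of the 79 genes, whereas wild-type replicate 3 had reads on 49. The depths of wild-type replicates 1 and 3 were close, 44991286 and 48726973 reads, yet replicate 1 had reads on 65 of the genes.

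All 36 tested msp, ssp, nspd and gsp genes differed at least 2-fold between the highest and lowest library, after adding 1 to each value, against 29.9% of the 9779 genes tested. Their ratios ran from 7.35 for msp-76 to 56.1 for ssp-10, with a median of 14.5. Spread depends on level, so the same count was made over the 3104 tested genes whose means lay in the range of these 36, 10.7 to 105 normalized counts: 79.1% of them differed at least 2-fold, and 21.7% reached 7.35-fold.

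The order of the libraries was shared gene by gene. Wild-type replicate 2 and adr-2(-) replicate 1 were the highest pair in 31 of the 36 genes, 86.1%, against 9.06% of all genes tested and 19.1% of those in the same range of means. Replicate 3 of the wild type and replicate 3 of adr-2(-) were the lowest pair in 29 of the 36, 80.6%, against 7.50% of all genes tested and 13.7% in that range. When a gene had to average 50 or more normalized counts, both statements held for 11 of 11 genes, against 5.63% and 5.05% of all genes at that minimum. Genes of 1 library share its depth and its tissue, so these counts describe the 6 libraries and are not independent observations. The 2 pairs are also the highest and lowest libraries in the sums of these same genes. The counts therefore show how evenly the genes share that order and do not test it.

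The order was also present within each strain. In the wild type alone, replicate 2 exceeded replicate 1 and replicate 1 exceeded replicate 3 in 30 of the 36 genes, against 14.8% of all genes tested. All 36 were at least 2 times higher in wild-type replicate 2 than in wild-type replicate 3, after adding 1, against 7.65% of all genes. In adr-2(-), all 36 genes were highest in replicate 1, against 35.2% of all genes, and 30 were higher in replicate 2 than in replicate 3, against 49.5%. The shares of all genes given for the single strains were not matched for level, on which spread depends. These orders, too, are those of the sums of the same genes, so the counts do not test them.

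**Figure D2:**
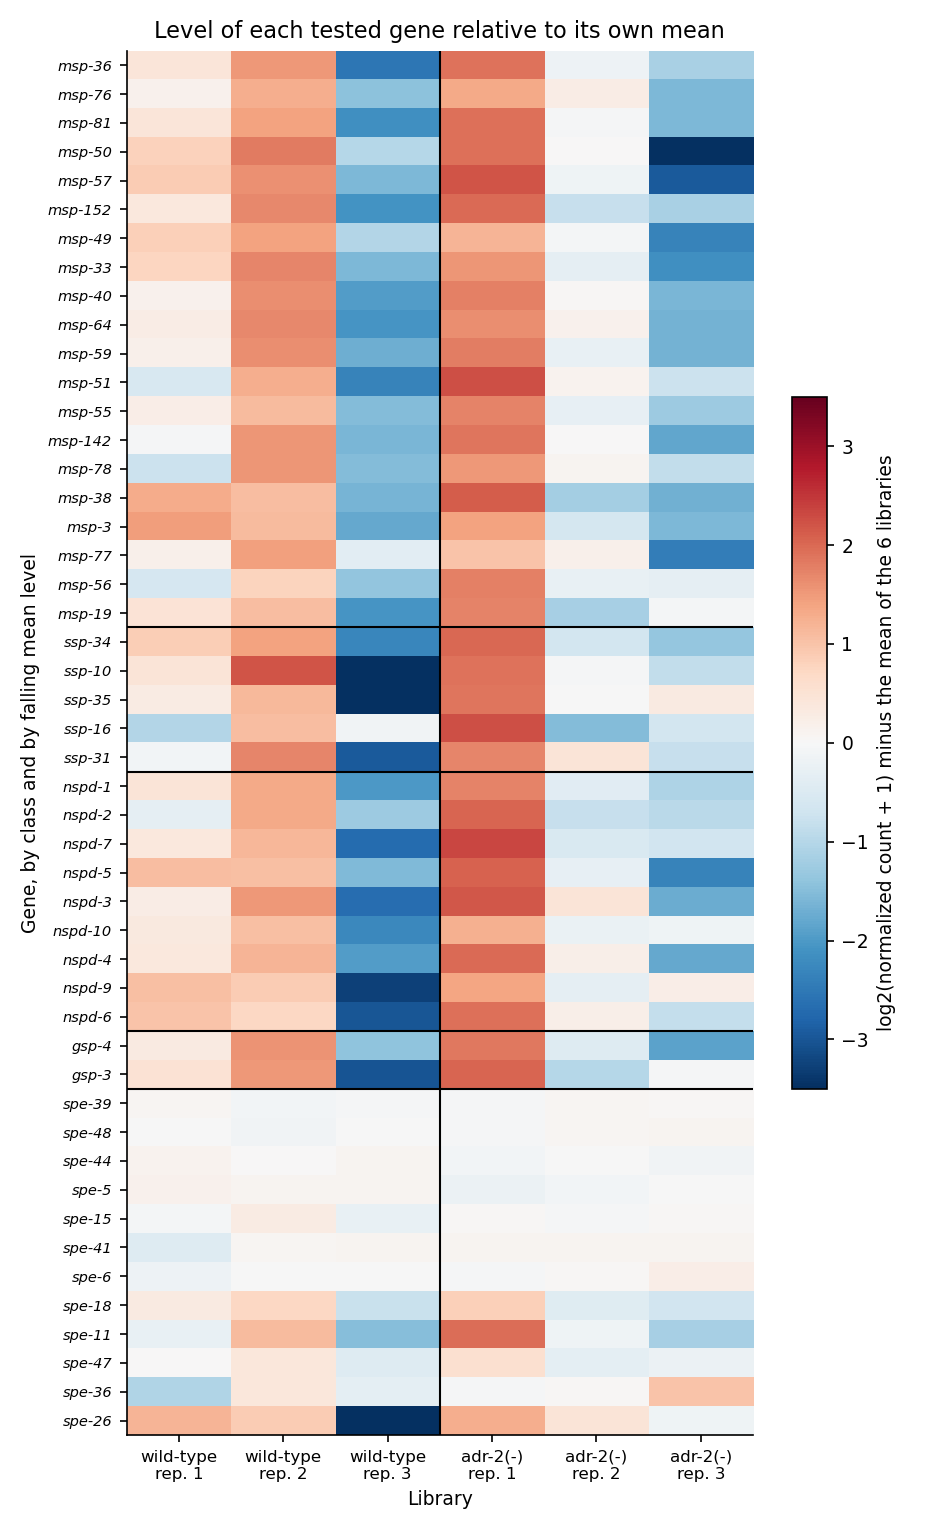
Each row is 1 of the 48 tested genes, ordered by class and by falling mean, each column is 1 library, and colour gives log2(normalized count + 1) minus the gene's mean over the 6 libraries. The msp, ssp, nspd and gsp rows are red in wild-type replicate 2 and adr-2(-) replicate 1 and mostly blue in replicate 3 of both strains, while the upper 7 spe rows are near white.

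Muscle and intestine genes moved with the sperm genes in part. In adr-2(-) replicate 1, where sperm gene sums were highest, 5 of 5 tested muscle genes and 6 of 7 tested intestine genes were also highest. In 3 of 5 tested muscle genes and 0 of 7 tested intestine genes, that library and wild-type replicate 2 were the highest pair. Muscle sums in wild-type replicates 1, 2 and 3 were 1433, 1752 and 1271 normalized counts, the same order as the msp sums but a 1.38-fold range against 9.77-fold. The intestine sum was lowest in wild-type replicate 2 and differed by at most 1.73-fold within the wild type. The part of other tissue in the sperm gene levels was not tested. The list of 8 gonadal sheath and spermatheca genes had a sum that differed by at most 1.11-fold, most of it from fln-1, a gene of both tissues, and the sheath genes inx-8 and inx-9 were also well detected. In this list, 3 of 7 tested genes differed at least 2-fold between libraries, the most variable of them 25.1-fold after adding 1. Wild-type replicate 2 and adr-2(-) replicate 1 were the highest pair in 0 of the 7. Among the low genes of the list, fkh-6 read 24.2, 27.5 and 7.74 normalized counts in the wild type and 17.8, 20.3 and 11.5 in adr-2(-). Replicate 3 of each strain was lowest, as in the msp genes. The spermatheca gene sth-1 read 0, 0 and 5.81 in the wild type and 15.2, 1.36 and 2.30 in adr-2(-), highest in adr-2(-) replicate 1 with 12 reads. Their part in the sperm gene levels was not tested.

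**Figure D3:**
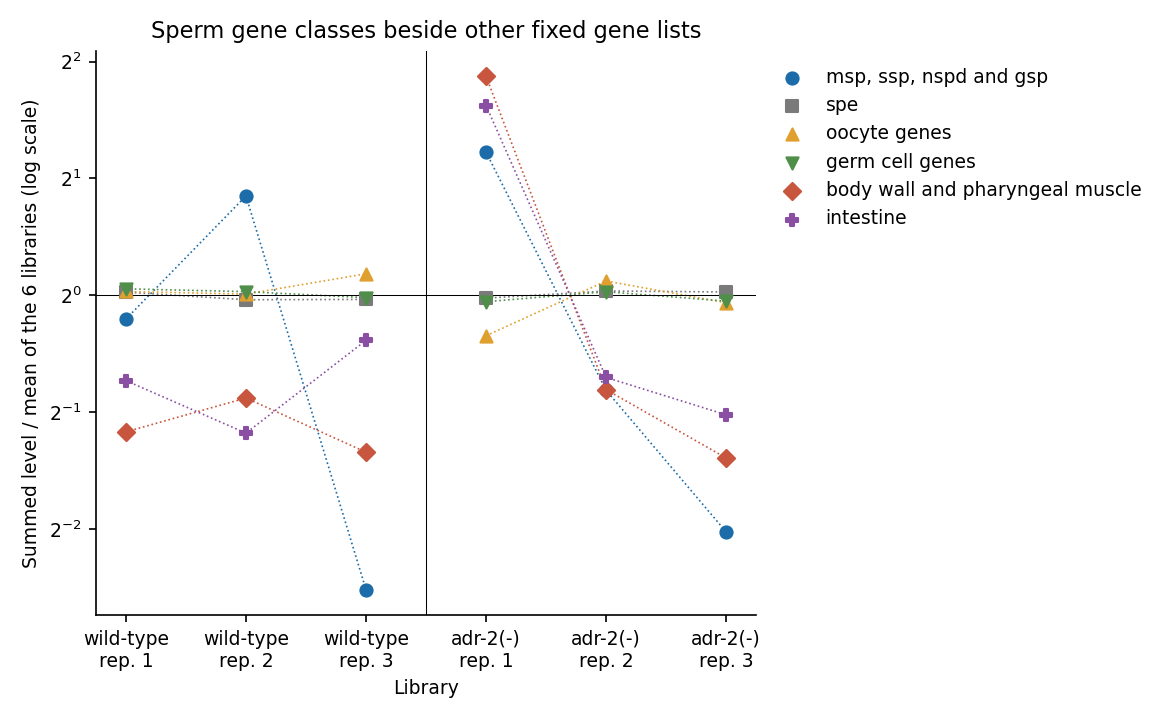
Summed level of the msp, ssp, nspd and gsp genes, the spe genes and 4 other gene lists in each library, divided by the mean of the 6 libraries (log axis). The sperm gene points are above 1 in wild-type replicate 2 and adr-2(-) replicate 1, the muscle and intestine points are above 1 in adr-2(-) replicate 1 alone, and the spe and germ cell points stay close to 1.

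The spe genes split into a steady and a variable set. Of the 12 tested, 7 differed less than 2-fold between libraries (spe-39, spe-48, spe-44, spe-5, spe-15, spe-41 and spe-6) and 5 differed by more (spe-47, spe-18, spe-36, spe-11 and spe-26). The steady genes were the 7 with the highest means, from 193 to 5654 normalized counts, and the variable ones had means from 17.6 to 59.1. The split thus coincided with level, and of all tested genes with means of 10.7 to 105, 79.1% differed at least 2-fold. Of those genes 21.7% reached 7.35-fold, as spe-11 and spe-26 did and spe-47, spe-18 and spe-36 did not. Whether level accounts for the split was not tested.

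SPE-39 works in vesicle trafficking, and its gene is expressed broadly in the worm. It measured 5887, 5275 and 5484 normalized counts in the wild type and 5459, 5965 and 5856 in adr-2(-), a highest-to-lowest ratio of 1.13. The spe-48 gene measured 1677, 1574 and 1685 in the wild type and 1666, 1790 and 1828 in adr-2(-). The strains overlapped in both genes. Per kilobase of exon, the mean level of spe-39 was 2910 normalized counts and that of spe-48 was 1345, against 340 for nspd-1, 273 for msp-36 and 43.1 for gsp-4. On the same per-kilobase scale, the oocyte yolk receptor gene rme-2 stood at 19268 and the germ cell gene glh-1 at 20749.

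SPE-44 is a transcription factor that activates spermatogenesis genes. Its gene read 1378, 1279 and 1346 normalized counts in the wild type and 1181, 1248 and 1168 in adr-2(-), so that every adr-2(-) library was below every wild-type library. SPE-5 is a subunit of the vacuolar proton pump, and its gene read 678, 652 and 652 in the wild type and 535, 575 and 607 in adr-2(-). These were the only 2 of the 48 tested genes whose groups did not overlap, both with adr-2(-) lower. The background was 9.26% of all genes tested with adr-2(-) lower and 9.50% with adr-2(-) higher, a direction in which no tested gene of the set was found. The log2 fold change was -0.15 (SE 0.08, n = 3 per strain) for spe-44, with a limma adjusted p of 0.456, and -0.21 (SE 0.10) for spe-5, with a limma adjusted p of 0.435. The exact permutation test gave p = 0.1 for each, the smallest that 3 against 3 libraries allow.

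The remaining steady genes encode a myosin, a channel and a kinase. The myosin VI gene spe-15 read 381, 492 and 336 normalized counts in the wild type and 414, 392 and 418 in adr-2(-). The calcium channel gene spe-41 read 242, 350 and 358 in the wild type and 352, 353 and 357 in adr-2(-). The casein kinase gene spe-6 read 169, 189 and 191 in the wild type and 187, 197 and 225 in adr-2(-). None of the 3 separated the strains.

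Among the variable spe genes, spe-11 and spe-18 followed the order of the msp genes. SPE-11 is carried by sperm into the embryo, and its gene read 26.3, 69.1 and 10.6 normalized counts in the wild type and 127, 28.5 and 13.8 in adr-2(-). SPE-18 is needed to assemble MSP into fibrous bodies, and its gene read 66.3, 89.3 and 31.0 in the wild type and 95.2, 39.3 and 33.3 in adr-2(-). Both genes were highest in adr-2(-) replicate 1 and wild-type replicate 2.

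The other variable spe genes were less regular. The kelch protein gene spe-26 read 27.4, 22.2 and 0 normalized counts in the wild type and 29.2, 16.3 and 10.3 in adr-2(-). SPE-47 has an MSP domain, and its gene read 23.1, 30.4 and 16.5 in the wild type and 34.3, 17.6 and 19.5 in adr-2(-). The gene for the secreted sperm protein SPE-36 read 8.42, 24.6 and 14.5 in the wild type and 17.8, 19.0 and 37.9 in adr-2(-), with its highest library in adr-2(-) replicate 3. The spe-36 locus overlaps F12F6.1 and F40F11.3, whose means were 8064 and 2012 normalized counts, so reads at spe-36 may belong to its neighbours.

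**Figure D4:**
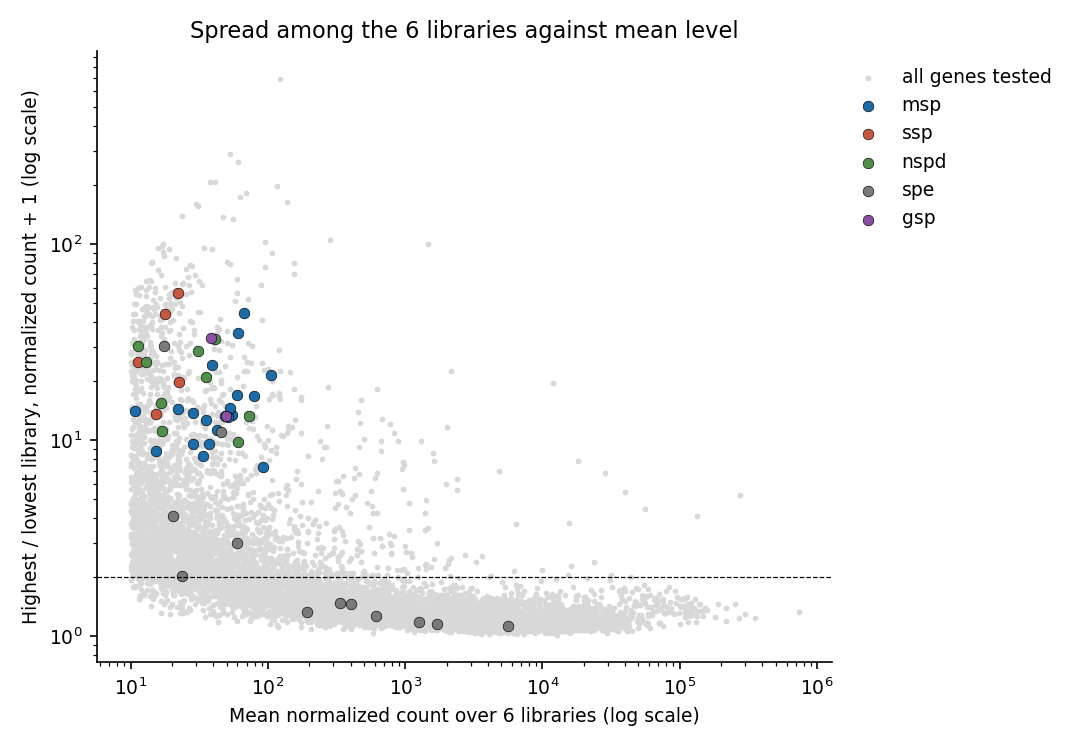
Ratio of the highest to the lowest library (normalized count + 1) against mean normalized count, both on log axes, for the 9779 tested genes in grey and the 48 tested sperm genes in colour; the dashed line marks a 2-fold ratio. The msp, ssp, nspd and gsp points lie at ratios of 7.35 to 56.1, and 7 spe points lie below the line.

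Most spe genes with specific roles in sperm were near the limit of detection. The gene for the presenilin-related protein SPE-4 had the highest mean of those under the minimum, with 12.6, 18.4 and 0 normalized counts in the wild type and 14.0, 6.78 and 5.75 in adr-2(-). Genes of the sperm activation pathway were low, with means of 6.97 for the kinase gene spe-8, 4.46 for spe-43, 2.52 for spe-12, and 0.891 for spe-27. The genes for fertilization proteins of the sperm surface were low as well, with means of 5.12 for spe-9, 2.92 for spe-42, 1.65 for spe-38, and 1.34 for spe-49. Among the rest, spe-46 had a mean of 9.13 and spe-51 of 7.18. The spe-38 locus shares its strand with impt-1 (mean 1413), and the 8 reads at spe-38 are uncertain for that reason. The palmitoyltransferase gene spe-10 was at 0 in every wild-type library and at 5.08, 2.71 and 1.15 normalized counts in adr-2(-). That rested on 7 reads in all, and both groups were at or under the floor of 3 reads a library, except for adr-2(-) replicate 1 with 4 reads.

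The comparison of the strains asked whether loss of adr-2 changed these genes. Of the 48 tested, 0 were called by limma on log2(normalized count + 1), where a call needed an adjusted p of 0.05 or less together with a change of 0.5 or more on the log2 scale, up or down. The background was 0.297%, or 29 of 9779 genes. On reads recovered from the normalized counts, edgeR called 0 of 45 (background 0.199%) and DESeq2 called 0 of 48 (background 1.31%). At an unadjusted p under 0.05 the count was 0 in each of limma, edgeR and DESeq2, against 12.5%, 13.3% and 13.6% of all genes tested.

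By limma, 35 of the 48 genes had a positive log2 fold change and 13 a negative one. The median log2 fold change was 0.12, beside 0.00 over all genes tested, and by class it was 0.04 for msp, 0.65 for ssp, 0.56 for nspd, 0.17 for gsp and 0.08 for spe. The single values were imprecise: the median SE was 0.99 for the 48 genes and 0.13 for all genes tested, on the log2 scale. Without adr-2(-) replicate 1 or without wild-type replicate 3, the medians of msp, ssp, nspd and gsp turned negative, and over the libraries left out in turn the msp median ran from -0.87 to 0.78.

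By limma, the 3 largest positive log2 fold changes belonged to ssp-35 (1.45, SE 1.17), msp-51 (1.09, SE 0.99) and spe-26 (1.06, SE 1.20). The msp-51 gene read 15.8, 58.4 and 3.87 normalized counts in the wild type and 117, 25.8 and 13.8 in adr-2(-). On recovered reads the log2 fold changes were smaller for ssp-35 (0.75 by edgeR, 0.78 by DESeq2) and spe-26 (0.16 and 0.17), and msp-51 ranked highest in both, at 0.96 and 0.98. Limma adjusted p-values of the 3 genes were 0.652, 0.691 and 0.759, and the strains overlapped in each.

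The 3 largest negative values by limma belonged to msp-50 (-1.07, SE 1.23), msp-77 (-0.83, SE 0.90) and msp-49 (-0.80, SE 0.89). For msp-50 the wild-type levels were 66.3, 134 and 18.4 normalized counts and the adr-2(-) levels were 146, 37.98 and 2.30. The msp-77 gene read 18.9, 46.8 and 12.6 in the wild type and 34.3, 19.0 and 2.30 in adr-2(-). The msp-49 gene read 69.4, 105 and 18.4 in the wild type and 90.2, 36.6 and 6.90 in adr-2(-). In these 3 genes adr-2(-) replicate 3 was the lowest library, and without it all 3 log2 fold changes became positive (0.43, 0.18 and 0.16). Limma adjusted p-values were 0.761, 0.747 and 0.753. On recovered reads msp-50 moved to -0.25 by edgeR and -0.24 by DESeq2, and msp-3 had the largest negative value, -0.54 and -0.55.

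**Figure D5:**
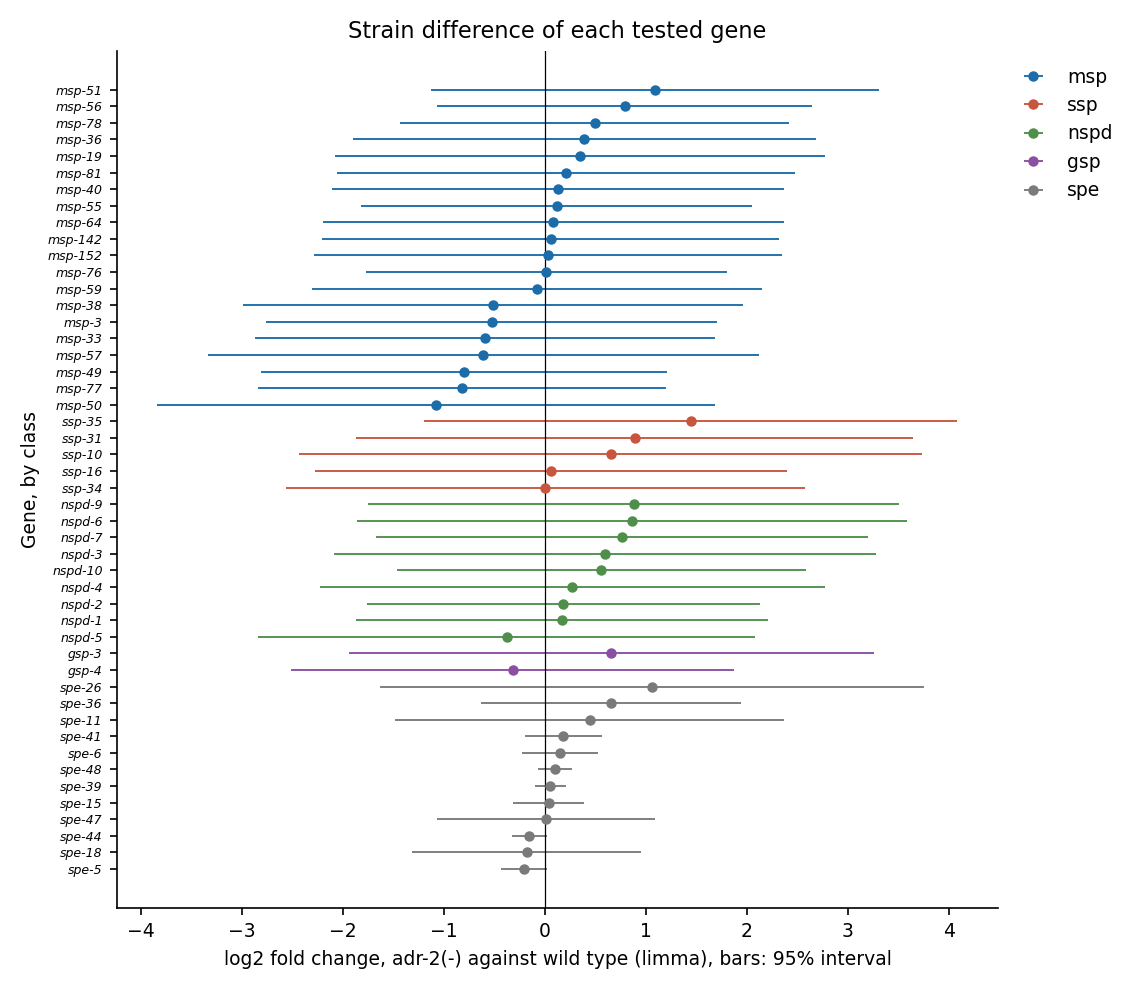
Log2 fold change of adr-2(-) against wild type from limma for the 48 tested genes, by class, with 95% intervals as bars. Intervals of the msp, ssp, nspd and gsp genes are wide and cover 0, whereas the steady spe genes, among them spe-44 at -0.15 and spe-5 at -0.21, have narrow ones that also cover 0.

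The sums gave the same comparison over all genes of a class, tested or not. Mean msp sums were 975.5 ± 835 normalized counts (SD, n = 3) in the wild type and 1009 ± 1072 in adr-2(-), a log2 ratio of 0.05. For spe the sums were 10302 ± 264 and 10510 ± 241, a log2 ratio of 0.03. The msp ratio moved between -1.29 and 0.91 when single libraries were left out, and that of spe moved between 0.02 and 0.05.

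Other genes of spermatogenesis were taken from a list of 31, of which 25 were in the table and 21 were tested. None of the 21 was called by limma, 1 had an unadjusted p under 0.05, and the median log2 fold change was -0.02, with 9 genes above 0 and 12 below. In 12 of the 21, the library order was that of the msp genes at both ends, against 2.87% of all genes tested. These were ssq-1 to ssq-4, msd-2 and msd-4, the sperm chromatin genes spch-1, spch-3, smz-2 and htas-1, the Argonaute gene alg-3 of the male germline, and gskl-2. The ssq-4 gene, for example, read 112, 279 and 27.1 normalized counts in the wild type and 296, 107 and 25.3 in adr-2(-). A further 4 genes of the list were abundant and steady: wee-1.3, zipt-7.1, nhr-23 and ife-1 each differed by at most 1.20-fold between libraries.

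Of 18 regulators that decide between sperm and oocyte fate, 15 differed less than 2-fold between libraries, and 3 (her-1, fbf-1 and elt-1) differed by more, up to 4.43-fold for fbf-1. Their sum, most of it from abundant genes such as gld-1, differed by at most 1.16-fold. Limma called 0 of 18, with 3 of 18 (16.7%) at an unadjusted p under 0.05 against 12.5% of all genes tested. By log2 fold change, 11 of the 18 were higher in adr-2(-) and 7 lower, with a median of 0.02. The fem-3 gene, which promotes the male fate, read 3210, 3367 and 3247 normalized counts in the wild type and 3855, 3822 and 4320 in adr-2(-). Its groups did not overlap, as in 9.50% of all genes tested with adr-2(-) higher, and its log2 fold change was 0.29 (SE 0.07) with a limma adjusted p of 0.167. The fog-3 gene, which acts at the end of that pathway in germ cells, was low, with 12.6, 15.9 and 19.4 in the wild type and 24.1, 21.7 and 19.5 in adr-2(-). Its groups were apart only by 19.4 against 19.5, a gap too small to separate the strains.

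By position on the WBcel235 assembly, 35 of the 79 genes were on chromosome IV, 20 on I, 14 on II, 7 on V, 3 on III and 0 on X, although the X chromosome held 13.5% of the genes of the table. The 29 msp genes were on chromosomes II (11) and IV (18) alone. Genes of the set less than 100 kb apart were joined into clusters, which gave 9 clusters with 45 of the 79 genes and all 29 msp genes. The largest, IV:4994371-5316906, held 13 genes, IV:9689015-9896136 held 11 and II:4785898-4933410 held 7.

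In all 9 clusters, wild-type replicate 2 and adr-2(-) replicate 1 had the highest sums. The summed level at IV:4994371-5316906 was 206, 455 and 34.8 normalized counts in the wild type and 668, 163 and 55.2 in adr-2(-), a 19.2-fold range. That at IV:9689015-9896136 was 240, 621 and 79.3 in the wild type and 745, 222 and 89.6 in adr-2(-), a 9.39-fold range. At II:4785898-4933410 the sums were 258, 451 and 39.7 in the wild type and 554, 123 and 44.8 in adr-2(-). In each of these 3 clusters adr-2(-) replicate 1 was highest and wild-type replicate 3 lowest.

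The msp genes are near-identical copies, and this limits what a count for 1 of them means. All 29 have a single exon, and 26 of 29 have a coding length of 381 bases, whereas spe coding lengths ran from 393 to 3657 bases. How reads that match several copies were counted is not given in the sources used here, so the split of reads among msp genes is uncertain, and likewise among nspd genes and between gsp-3 and gsp-4. The name ssp-9 is shared by 2 entries of the table. Loci of 13 genes overlap another annotated gene, and whether counting used strand is not given either. One of these is msp-38, which lies opposite dhs-12 (mean 4681). Its levels of 43.1, 36.7 and 4.84 normalized counts in the wild type and 76.2, 6.78 and 4.597 in adr-2(-) spread as those of the other msp genes did.

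Editing calls in these genes were few in number, and so were reads. The lists of candidate adenosine-to-inosine positions held 28, 70 and 19 positions in them for wild-type replicates 1, 2 and 3 and 78 in the merged list of adr-2(-), which lacks the enzyme. Of these, 14, 22, 9 and 28 lay in spe-39. As shares of all listed positions, those in the 79 genes were 0.031%, 0.038% and 0.019% in the wild-type lists and 0.039% in the adr-2(-) list. Reads on the 79 genes were 0.025%, 0.028% and 0.022% of all reads on genes in wild-type replicates 1, 2 and 3. At a confidence of at least 0.75 there were 6, 10 and 7 positions in the wild-type lists and 10 in the adr-2(-) list, 33 distinct positions of which 0 appeared in more than 1 list. As shares of the listed positions in these genes they were 21.4%, 14.3%, 36.8% and 12.8%, against 5.52%, 4.08%, 5.13% and 1.59% of all listed positions. The median read coverage of a listed position was lower in these genes in every list. In each list the confident positions of these genes had a median of 1 edited read, at median coverages of 21, 19.5, 11 and 14 reads. Sites at that confidence in all 3 wild-type replicates and not listed for adr-2(-) numbered 1012 over all genes, and 0 of them lay in these genes. With so small a share of the reads, this 0 is not a result about them. Coverage limited this for the low classes, since spe-39 alone had more reads than all msp, ssp, nspd and gsp genes together, 35979 against 10756.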

How the data were processed

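Per the labels and the study's methods, poly(A)-selected RNA of dissected germlines was sequenced from stranded KAPA libraries, 3 per strain described as biological replicates, and the authors aligned reads with STAR 2.7.10b to the WS275 genome. How reads were counted per gene is not given in the sources used here. The deposited values are a normalized signal, read counts divided by 1 DESeq2 size factor per library. Dividing each library by its smallest value above 0 gave whole reads for 100% of values (tolerance 0.01). The authors' own comparison, held as a log2 fold change, its SE, a test score and p-values, and their mean column (6 columns in all) were not used. Per the file headers, the deposited editing lists hold a position, other read fields such as coverage, and the SAILOR confidence score, separately for each wild-type replicate and merged for adr-2(-).

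Strains were compared with limma 3.58.1 (trend) in R 4.3.3 on log2(normalized count + 1), over genes with a mean of at least 10, with Benjamini-Hochberg adjustment over all 9779 and 2-sided tests. The added 1 shrinks fold changes of low genes, but limma values are not lower limits. They were larger than those of edgeR and DESeq2 for some genes, such as nspd-9 (0.88 against 0.19 and 0.20). For others they were smaller, such as spe-11 (0.44 against 0.65 and 0.66). edgeR 4.0.16 and DESeq2 1.42.0 were run on recovered reads, and all 3 were tested on simulated data. Other alternatives were pseudocounts of 0.5 and 5, no minimum and a minimum of 50, TMM, quantile normalization, a replicate block, each library left out, sums without the highest gene or as shares of reads, and other editing thresholds.

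Names and positions came from the Ensembl release 115 annotation, which named 17219 of 18206 genes. Genes given with values were the 3 highest per class, gsp-3 and gsp-4, the 3 largest changes each way, and spe genes of known role, and other genes of the text were picked after their values were seen. The members and lists were chosen with earlier results of these data known. Intervals and floors of 3 reads cover counting error only, since reads carry no molecular identifiers.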

Additional observations from a re-analysis of the deposited data

How the results depend on the processing

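No member was called under any of the alternatives run. Over all genes, the number called was 29 by limma, 127 by DESeq2, and between 8 and 64 when single libraries were left out. Replicate numbers gave no regular pairing: deviations from the strain means correlated across genes at 0.03, -0.22 and 0.38 for replicates 1, 2 and 3. The highest correlation was 0.42, for wild-type replicate 2 with adr-2(-) replicate 1. Over all genes tested, this pair and the pair of replicates 3 were thus the most alike, as in the msp library order. The correlations cannot show which samples were collected together. With the replicate block, 0 members and 25 genes overall were called. The summed spe level, as a share of reads, gave a log2 ratio of 0.12 in place of 0.03. With single libraries left out, the median log2 fold change of the spe genes ran from -0.12 (without wild-type replicate 3) to 0.18.

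Named genes whose log2 fold change turned in sign were msp-76 (-0.0032 with TMM, -0.11 with quantile normalization), ssp-34 (-0.059 with a pseudocount of 5, -0.012 with TMM, -0.21 with quantile normalization), ssp-10 (-0.26 by edgeR, -0.23 by DESeq2), gsp-4 (0.00087 by DESeq2), spe-15 (-0.0020 with quantile normalization) and spe-47 (-0.0078 with TMM, -0.21 with quantile normalization). The cause was not tested. Of 24 named genes tested, 17 changed sign when a library was left out. Their ranges over the libraries left out were -0.78 to 1.25 for msp-36, -0.70 to 0.80 for msp-76, -0.81 to 1.05 for msp-81, -1.14 to 0.71 for ssp-34, -0.996 to 1.91 for ssp-10, -0.80 to 0.87 for nspd-1, -0.79 to 0.88 for nspd-2, -0.39 to 1.54 for nspd-7, -0.68 to 1.58 for gsp-3, -1.33 to 0.54 for gsp-4, -2.31 to 0.43 for msp-50, -1.53 to 0.18 for msp-77, -1.61 to 0.16 for msp-49, -0.50 to 1.91 for spe-26, -0.43 to 1.13 for spe-11, -0.085 to 0.19 for spe-15 and -0.27 to 0.21 for spe-47. Counting error was small beside the spread of the libraries for the msp sum, with 181 reads in the least covered library, but single genes under the minimum of 10 normalized counts had few reads.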

Other observations

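The library order of the msp genes was not confined to genes chosen by name. Over the 9779 genes tested, 168 had wild-type replicate 2 and adr-2(-) replicate 1 as the 2 highest libraries, replicate 3 of both strains as the 2 lowest, and a highest-to-lowest ratio of at least 7.35. That ratio is the lowest of the 36 tested msp, ssp, nspd and gsp genes and was set after their values were seen. Of the 168 genes, 26 were among the genes described above and 142 were not.

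The 142 others included 10 genes of the other spermatogenesis list and 0 genes of the oocyte, germ cell, sperm fate, gonadal sheath, muscle, intestine, hypodermis or neuron lists. These lists had only 4 to 18 tested genes each. In the oocyte, germ cell and sperm fate lists the highest ratios were 1.77, 1.42 and 4.43, under the 7.35 required. The 0 is therefore not a result about these lists. The 142 genes were low, with a median mean level of 23.3 normalized counts and a maximum of 173, for nsph-3.2. On chromosome IV lay 52 of them (36.6%) and on X lay 3 (2.11%), where chromosome IV held 16.9% and chromosome X 12.2% of all genes tested. In the strain comparison by limma, their median log2 fold change was 0.29 and 0 of the 142 were called, beside 0.297% of all genes tested. The order by which they were chosen makes the strains overlap, so this count of calls is not a result about them.

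The 4 with the highest means outside any list used here were nsph-3.2, R09E10.6, gipc-2 and gipc-1. The nsph-3.2 gene read 146, 301 and 37.7 normalized counts in the wild type and 437, 92.2 and 26.4 in adr-2(-).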
